A study of Mus musculus with 6 samples.

Results

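Murinoglobulins and alpha-2-macroglobulins are large plasma proteins made mainly by hepatocytes. They trap proteases: a protease cuts a stretch of the inhibitor called the bait region, the inhibitor changes shape around it, a reactive thioester bond links the pair, and the complex is taken up by cells through the receptor LRP1. Mug1 and Mug2 encode murinoglobulins, monomeric inhibitors found in rodents. Pzp encodes the multi-subunit alpha-macroglobulin of mouse plasma, and A2m encodes a relative that in some species rises in the acute phase of inflammation. The 4 genes were taken from the deposited table by symbol, and each matched 1 of its 41388 gene identifiers. They were chosen by their measured values in this comparison, that is, with the fall of Mug2 in Atp7b-/- livers already known. Their changes between genotypes are therefore given below as a description. Where the text says that a member passed a threshold, nothing is read from it.

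The livers came from mice at 6 weeks of age of the mixed strain background C57BL x 129S6/SvEv, on a diet with 16 ppm copper. One group of 3 libraries was wild type. The other group of 3 libraries was Atp7b-/-, lacking the copper-transporting ATPase that exports copper into bile and whose human counterpart is mutated in Wilson disease. No other allele or agent is named for either group, and the labels do not tie each library to a separate animal, so that the errors measure the spread between libraries. Wild type replicate 1 and Atp7b-/- replicate 3 were read from both ends of each fragment (paired-end) and the other 4 from 1 end (single-end), with reads of 54 bases. Total counts lay between 5919389 and 25973968 per library. Atp7b was at 25.3 to 85.2 CPM (scaled counts per 1e6) in wild type and 13.3 to 19.2 CPM in Atp7b-/- libraries. The labelled sexes were not borne out in 2 of the 3 libraries labelled female. The Y-linked Ddx3y was at 0.34 CPM in wild type replicate 2, at 28 CPM in wild type replicate 3 and at 126 CPM in Atp7b-/- replicate 3, against 29.5 to 161 CPM in the libraries labelled male. Xist, an RNA of females, was at 371 CPM in wild type replicate 2, 17.4 CPM in wild type replicate 3 and 0.482 CPM in Atp7b-/- replicate 3. In the libraries labelled male, Xist was at 0.117 to 1.01 CPM. Changes of the members without both libraries are given beside the changes in all 6.

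All 4 genes lie on chromosome 6 (GRCm38). A2m (ENSMUSG00000030111, 121635376 to 121679227), Mug1 (ENSMUSG00000059908, 121838541 to 121889057) and Mug2 (ENSMUSG00000030131, 122006761 to 122085965) follow each other on the plus strand, with 159 kb between A2m and Mug1 and 118 kb between Mug1 and Mug2. The transcribed pseudogene Mug-ps1 (ENSMUSG00000101397, 122176015 to 122248563) lies a further 90.1 kb along. Pzp (ENSMUSG00000030359, 128483567 to 128526720) lies 6.24 Mb beyond it on the minus strand. Mug1, Pzp and A2m each have 36 exons in their main transcript and Mug2 has 35. The annotated Mug2 coding sequence of 4353 bases lacks the 75 bases at coding positions 3282 to 3356 of Mug1, whose coding sequence has 4428 bases.

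The coding sequences show how close the members are, which decides whether a short read can be given to one of them. Mug1 and Mug2 were 95.1% identical over 4347 aligned coding bases. Mug1 shared 65.3% with Pzp and 69.7% with A2m, and Mug2 was 96.8% identical to the transcript of Mug-ps1. The site that forms the thioester is coded by 12 bases, which are in capitals in the 60-base stretches of the 4 genes that follow, each 5′ to 3′ on the coding strand from the GENCODE M21 transcripts.
Mug1: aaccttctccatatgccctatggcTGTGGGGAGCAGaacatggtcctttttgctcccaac
Mug2: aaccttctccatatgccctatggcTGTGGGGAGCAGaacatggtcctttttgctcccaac
Pzp: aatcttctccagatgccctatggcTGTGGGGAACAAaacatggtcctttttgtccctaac
A2m: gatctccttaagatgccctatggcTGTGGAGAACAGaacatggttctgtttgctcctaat
Mug1 and Mug2 have the same 60 bases here. Pzp has 53 and A2m 48 of the 60 bases of Mug1, and each has 10 of the 12 bases of the site.

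The stretch in which Mug1 and Mug2 differ most, outside the exon that the Mug2 annotation lacks, lies at coding positions 2026 to 2133 of Mug1. Capitals mark bases with no identical partner in the alignment.
Mug1: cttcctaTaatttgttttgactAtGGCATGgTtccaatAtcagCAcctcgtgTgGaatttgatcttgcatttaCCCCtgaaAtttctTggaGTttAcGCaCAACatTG
Mug2: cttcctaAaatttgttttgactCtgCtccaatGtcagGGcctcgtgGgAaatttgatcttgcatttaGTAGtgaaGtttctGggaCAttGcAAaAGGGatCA
Of these 108 bases of Mug1, 31 have no identical partner, against a median of 4 over all stretches of that length. The Mug1 coding sequence was cut into 82 windows of 54 bases, of which 3 at the missing exon were left out for Mug2. In the other 79, Mug1 differed from Mug2 by at most 13 bases, reached in the neighbouring windows at 2053 to 2106 and 2107 to 2160, with a median of 2. The window at 2107 to 2160 also had the most differences from Pzp (31 bases, median 20) and from A2m (36 bases, median 17). The bait region is the part of these inhibitors known to vary most within the family.

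**Figure D1:**
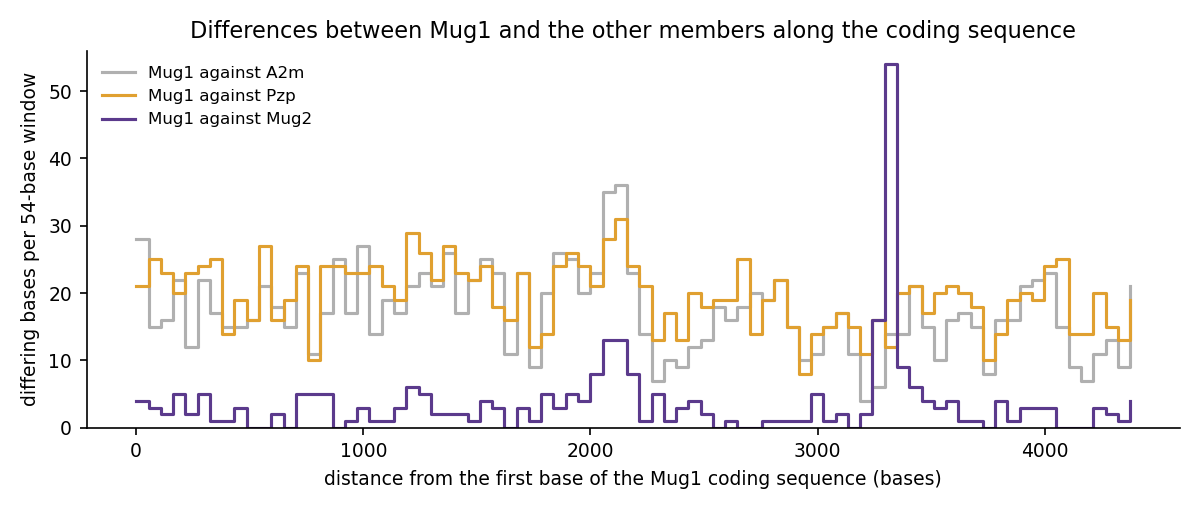
Differing bases per 54-base window (vertical axis) between Mug1 and Mug2, Pzp or A2m, by distance in bases from the start of the Mug1 coding sequence (horizontal axis). Mug2 stays near a median of 2 differences per window and outside the missing exon peaks at 13 in 2 neighbouring windows, the second of which is the one where Pzp and A2m peak; its bar at 54 is the exon missing from the Mug2 annotation.

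Reads of 54 bases therefore identify Pzp and A2m well and Mug2 poorly. Of the 54-base windows in the annotated transcripts of Mug2, 47.8% also occur in a transcript of another gene: 19% in Mug1, 35.4% in Mug-ps1, and others in the relatives Gm10319, Gm7298 and Mug4-ps. The share was 23.7% for Mug1, 40.4% for Mug-ps1, 3.07% for Pzp and 0% for A2m. Introns and unannotated sequence were not compared. No source used here gives the way that reads fitting several genes were counted, so single values of Mug1, Mug2 and Mug-ps1 are uncertain where such reads were split or dropped.

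**Figure D2:**
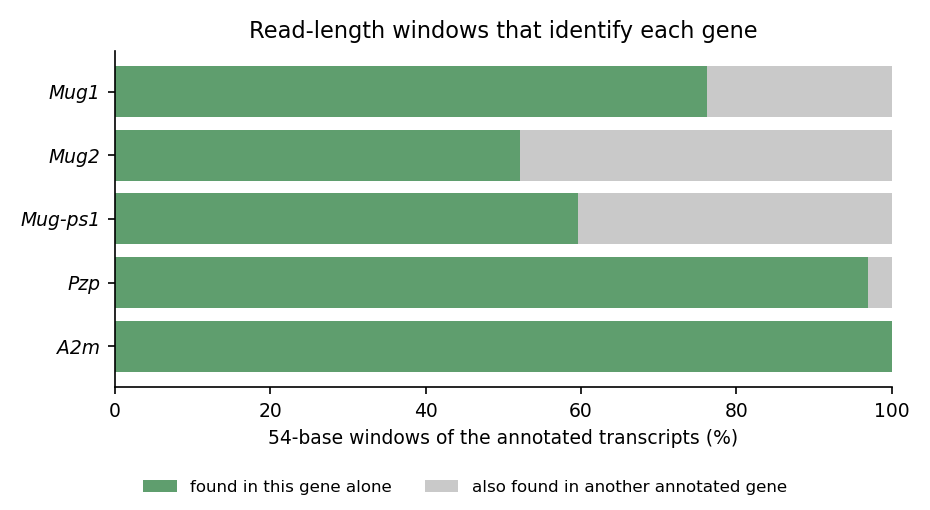
Percent of the distinct 54-base windows in each gene's annotated transcripts that occur in that gene alone (green) or also in another annotated gene (grey). Mug2 has the largest grey share of the 5 genes, 47.8%, and A2m has none.

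Mug1 was one of the abundant liver transcripts and had overlapping levels in the 2 genotypes. Its level was 6187, 1308 and 1561 CPM in wild type replicates 1 to 3 and 1897, 1378 and 4066 CPM in Atp7b-/- replicates 1 to 3. In both genotypes the paired-end library was the high one, and the 4 single-end libraries lay together. The means were 3018 ± 2747 CPM in wild type livers, against 2447 ± 1426 CPM in Atp7b-/- livers (SD, n = 3 each). With layout (paired-end or single-end) as a term in the fit, the log2 fold change of Atp7b-/- against wild type was -0.07 (SE 0.26). Its sign was not stable: it was 0.12 with library totals in place of TMM scaling, 0.20 in the single-end libraries alone, and 0.33 without wild type replicate 3 and Atp7b-/- replicate 3. That scaling by totals moved the median of all genes from -0.01 to 0.19.

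Mug2 was lower in every Atp7b-/- library than in every wild type library. It stood at 578, 228 and 215 CPM in wild type replicates 1 to 3 and at 17.5, 9.12 and 150.3 CPM in Atp7b-/- replicates 1 to 3. The paired-end Atp7b-/- library was the highest of its group by far and the nearest to wild type. The means were 340.1 ± 206 CPM in wild type livers, against 59 ± 79.2 CPM in Atp7b-/- livers, and the fitted level was 10.1-fold lower (log2 -3.34, SE 0.52). Within the paired-end libraries, 1 per genotype, Mug2 was 3.84-fold lower, and within the single-end libraries 16.6-fold lower. The single-end wild type libraries were both labelled female and the single-end Atp7b-/- libraries both male. The paired-end wild type library was labelled male and the paired-end Atp7b-/- library female. Within either layout, genotype and labelled sex therefore cannot be told apart. The RNA of the paired-end libraries did not differ as their labels did. Xist was at 1.01 CPM in the wild type and 0.482 CPM in the Atp7b-/- library, and Ddx3y at 161 and 126 CPM. Without wild type replicate 3 and Atp7b-/- replicate 3 the log2 fold change was -4.07, from a fit with 4 libraries. In bulk liver RNA, fewer cells that express a gene and less RNA per cell cannot be told apart.

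Among the 3 members that passed the expression filter, Mug2 was called lower (edgeR adjusted p under 0.05) and no member was called higher. Over all 12988 genes tested, 0.585% were called lower, 1.9% higher and 2.49% in either direction. Mug2 was also the only one of the 3 whose CPM ranges in the genotypes did not overlap, as was so for 3.28% of all genes in that direction and 8.51% in either. This contrast led to the choice of the genes, so nothing is read from these counts. Mug2 was called in 12 of 16 settings. It was not called without wild type replicate 3, without Atp7b-/- replicate 1, with no layout term or with labelled sex in place of layout, and in the last pair of fits no gene was called. The log2 fold change stayed between -4.07 and -1.94 in all 17 settings.

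Pzp was the most abundant member and, like Mug1, overlapped between genotypes. It stood at 7413, 4159 and 3082 CPM in wild type replicates 1 to 3 and at 3355, 3129 and 5292 CPM in Atp7b-/- replicates 1 to 3. The lowest library of all was wild type replicate 3 and the highest wild type replicate 1. The means were 4885 ± 2255 and 3925 ± 1189 CPM, with a log2 fold change of -0.27 (SE 0.23). The change was negative in all 17 settings tried, from -0.49 to -0.07, and without wild type replicate 3 and Atp7b-/- replicate 3 it was -0.36.

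A2m was close to absent. Wild type replicates 1 to 3 held 16, 4 and 0 of its reads, Atp7b-/- replicates 1 to 3 held 3, 1 and 12, and it did not pass the filter. These are 0.731, 0.34 and 0 CPM, and 0.175, 0.14 and 0.413 CPM, in the same order. The 0 of wild type replicate 3 allows up to 3 counts, or 0.507 CPM before scaling. Summed over libraries, 16 counts against 20 give an Atp7b-/- to wild type ratio of 0.679 per total count (95% exact counting interval 0.329 to 1.38, which covers counting error only). A difference between genotypes was not detectable at this depth.

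**Figure D3:**
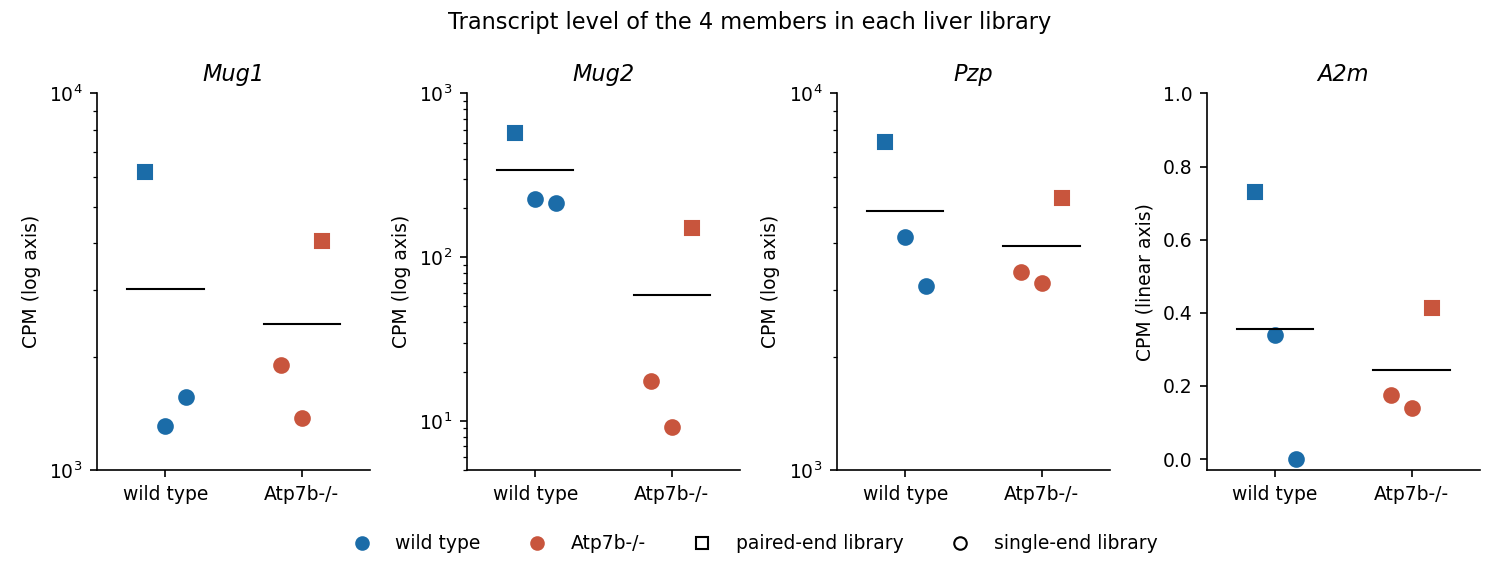
CPM of Mug1, Mug2 and Pzp (log axes) and A2m (linear axis) in each library, by genotype; squares are paired-end and circles single-end libraries, and black lines are group means (n = 3). Only Mug2 separates the genotypes, with 215 to 578 CPM in wild type livers, against 9.12 to 150.3 CPM in Atp7b-/- livers.

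Per kilobase of exon, the order in wild type livers was Pzp (762 ± 352 CPM per kb), Mug1 (523 ± 476), Mug2 (74.3 ± 44.9), Mug-ps1 (20.3 ± 27.1) and A2m (0.0509 ± 0.0521). Pzp and Mug1 did not differ beyond this spread, although Pzp was the higher of the pair in each of the 6 libraries. In Atp7b-/- livers Pzp (612 ± 185 CPM per kb) and Mug1 (424 ± 247) kept their places. Mug2 (12.9 ± 17.3) stood below the pseudogene Mug-ps1 (17.6 ± 18.1), a mean difference smaller than the spread between libraries. Within each Atp7b-/- library Mug2 was the lower of the pair. Its CPM per kb in replicates 1 to 3 were 3.82, 1.99 and 32.8, against 9.58, 4.8 and 38.3 for Mug-ps1. In each wild type library Mug2 was the higher. By mean CPM in wild type livers, Pzp ranked 17, Mug1 35, Mug2 410 and A2m 14291 among the 41388 genes of the table. In Atp7b-/- livers their ranks were 21, 38, 2606 and 15056. The ranks moved with layout too, from 13 in paired-end to 27 in single-end libraries for Pzp, from 18 to 76 for Mug1 and from 332 to 1364 for Mug2. The 4 genes together took 1.31% of the counts of wild type replicate 1 and 1.06% of those of Atp7b-/- replicate 3, both paired-end, and 0.443% to 0.547% elsewhere.

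A ratio inside 1 library does not depend on scaling between libraries. Mug2 made up 8.54%, 14.8% and 12.1% of the summed Mug1 and Mug2 counts in wild type replicates 1 to 3. In Atp7b-/- replicates 1 to 3 it made up 0.913%, 0.658% and 3.56%. The lowest wild type share lay above the highest Atp7b-/- share. The exact 95% binomial interval was widest in wild type replicate 3 (11.5% to 12.8%), and these intervals cover counting error only, not the spread between libraries. The mean share was 11.8% ± 3.15 in wild type and 1.71% ± 1.61 in Atp7b-/- livers (SD, n = 3 each). Mug1 therefore had 5.75 to 10.7 times the counts of Mug2 in wild type and 27.1 to 151 times in Atp7b-/- libraries.

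**Figure D4:**
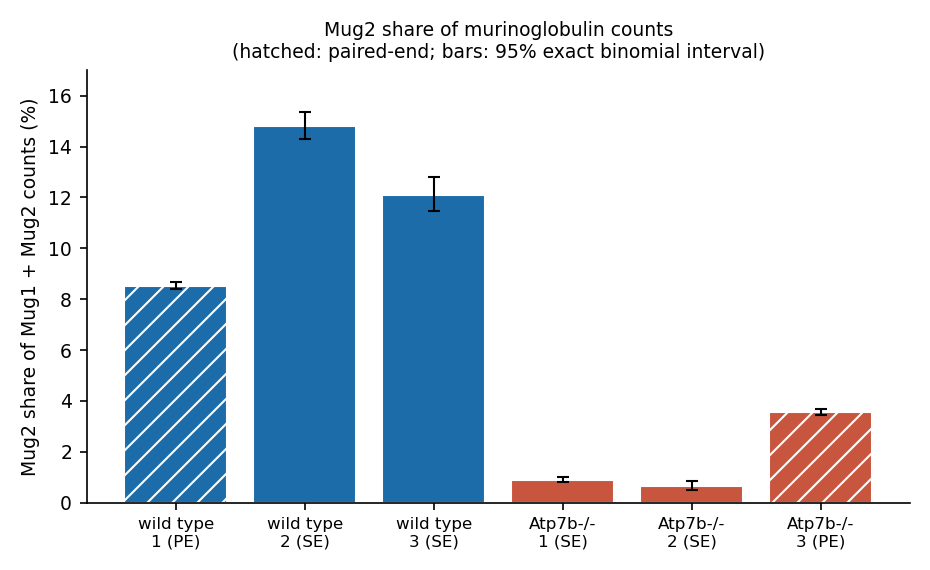
Mug2 counts as a percent of Mug1 plus Mug2 counts (vertical axis, from 0) in each library, with exact 95% binomial intervals that cover counting error only; blue is wild type, red Atp7b-/-, and hatched bars are paired-end. The wild type shares lie between 8.54% and 14.8% and the Atp7b-/- shares between 0.658% and 3.56%.

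Mug-ps1, whose transcript shares more windows with Mug2 than Mug1 does, did not follow Mug2. It stood at 267, 29.6 and 18.4 CPM in wild type replicates 1 to 3 and at 49.6, 24.8 and 198 CPM in Atp7b-/- replicates 1 to 3 (log2 fold change 0.27, SE 0.35, edgeR adjusted p = 0.793). For each count of Mug-ps1, wild type replicates 1 to 3 held 2.16, 7.7 and 11.7 counts of Mug2, and Atp7b-/- replicates 1 to 3 held 0.353, 0.367 and 0.759. Mug1, Mug2 and Mug-ps1 were then replaced by 1 summed row, which does not depend on how counted reads were divided among them. It does not restore reads that were dropped, and the relatives Gm10319, Gm7298 and Mug4-ps are outside it. Its log2 fold change was -0.22 (SE 0.25). That sum was 3464 ± 3092 CPM in wild type livers, against 2597 ± 1598 CPM in Atp7b-/- livers, and Mug1 made up most of it. All 4 members summed gave -0.26 (SE 0.23). The sign of the first sum turned in 4 of 17 settings, among them the single-end libraries alone, and that of the second in none.

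Within each genotype, Mug1, Mug2 and Pzp were each higher in the paired-end library than in the single-end ones. Across genotypes this did not hold for Mug2. The paired-end Atp7b-/- library (150.3 CPM) lay below both single-end wild type libraries (228 and 215 CPM). In the same edgeR fit, paired-end libraries had 3.31-fold more Mug1 (log2 1.73, SE 0.26, adjusted p = 0.000816), 5.82-fold more Mug2 (2.54, SE 0.50, adjusted p = 0.00566) and 1.83-fold more Pzp (0.87, SE 0.23, adjusted p = 0.0122). Mug-ps1 was 7.8-fold higher (2.96, SE 0.36, adjusted p = 0.000435). Layout passed the same test in 52.8% of all genes, with 27.2% of genes higher in paired-end libraries, so that a layout call is common in these data. Each layout holds both genotypes, and layout cannot be told apart here from the sequencing run or the animals in it.

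Mug2 changed by -1.94 (log2) between the paired-end libraries, 1 per genotype, and by -4.03 between the single-end ones. Mug1 stood at -0.61 and 0.20 and Pzp at -0.49 and -0.16 in the same order. A term for labelled sex, added to layout and genotype, takes up this difference: the paired-end minus the single-end change is 2 times the term. The term was 1.05 for Mug2 (labelled female minus male, SE 0.28), -0.40 for Mug1 (SE 0.25) and -0.16 for Pzp (SE 0.24). It was called for none of the 3, where 0.0154% of all genes were called, and for Mug2 in the fit with every gene of at least 1 count, where 0.633% were. Nothing is read from either, since each paired-end library is fitted exactly in this model and the values are those of the contrast that chose the genes. As 2 libraries labelled female carried Y-linked transcripts, the term is not an estimate of sex. It could not be fitted without Atp7b-/- replicate 3.

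The start regions of Mug1 and Mug2 are nearly the same, although their levels differ. They are shown because the pair differed in genotype change and their transcripts are so alike. The 300 bases from 250 before to 50 after the annotated start are from RefSeq (GRCm38.p6), in which 3 of the 4 members had an entry. They lie at chr6:121838291-121838590 for Mug1 and chr6:122006548-122006847 for Mug2, both on the plus strand. Capitals mark bases without an identical partner inside the alignment, which spans bases 36 to 300 of Mug1 and 1 to 263 of Mug2.
Mug1: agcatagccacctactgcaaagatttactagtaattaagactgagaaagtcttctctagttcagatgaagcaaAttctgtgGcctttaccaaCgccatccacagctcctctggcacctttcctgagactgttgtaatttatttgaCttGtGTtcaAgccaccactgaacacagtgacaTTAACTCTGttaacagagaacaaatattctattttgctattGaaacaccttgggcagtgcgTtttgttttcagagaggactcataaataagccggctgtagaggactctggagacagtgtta
Mug2: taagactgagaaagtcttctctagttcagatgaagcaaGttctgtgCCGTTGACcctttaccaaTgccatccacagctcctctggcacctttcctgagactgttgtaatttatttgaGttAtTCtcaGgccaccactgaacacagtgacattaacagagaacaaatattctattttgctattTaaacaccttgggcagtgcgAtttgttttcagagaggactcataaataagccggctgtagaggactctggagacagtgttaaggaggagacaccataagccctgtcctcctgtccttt
The pair was identical at 96.1% of 256 aligned bases, and the annotated starts are offset against each other. The Pzp window was 59% identical to that of Mug1 over its best 229 bases. On both strands the TATA box TATAAA (in 13.6% of all 32851 promoter windows), the interleukin 6 response core CTGGGA (31.8%), the STAT palindrome TTCNNNGAA (8.3%) and the HNF1 palindrome (0.00913%) had no match in the windows of Mug1, Mug2 or Pzp. The CCAAT box CCAAT (37.4%) occurred in the Mug2 window alone of the 3, at position -190 from its start. A match or its absence describes these letters only.

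Other listed genes of the thioester protein family showed no called change. Of 9 listed relatives 7 had a row and 6 passed the filter, the pseudogene Mug-ps1 among them. None was called, and the median log2 fold change was -0.04 against -0.01 over all genes. A2ml1 (log2 -1.71, SE 0.39, edgeR adjusted p = 0.0618), the neighbour of Pzp and the epidermal member of the family, came closest. It was at 11.2, 3.57 and 3.34 CPM in wild type replicates 1 to 3 and at 1.75, 0.982 and 2.17 CPM in Atp7b-/- replicates 1 to 3. Its ranges did not overlap, and it was called by DESeq2 (adjusted p = 0.00383), by limma-voom (0.0198) and by edgeR without Atp7b-/- replicate 1 (0.0495). Without 1 of the other libraries its edgeR adjusted p reached 0.323. The complement proteins C3 (-0.48, SE 0.25), C4b (-0.34, SE 0.21) and Hc, which encodes C5 (0.56, SE 0.25), had adjusted p of 0.347 to 0.497, and C4a had 2.41 (SE 0.71, adjusted p = 0.227). Cd109 had 22 counts in wild type replicate 1, 3 in Atp7b-/- replicate 3 and 0 in the other libraries. The murinoglobulin pseudogene Gm10319 stood at -0.53 (SE 0.28, adjusted p = 0.439).

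**Figure D5:**
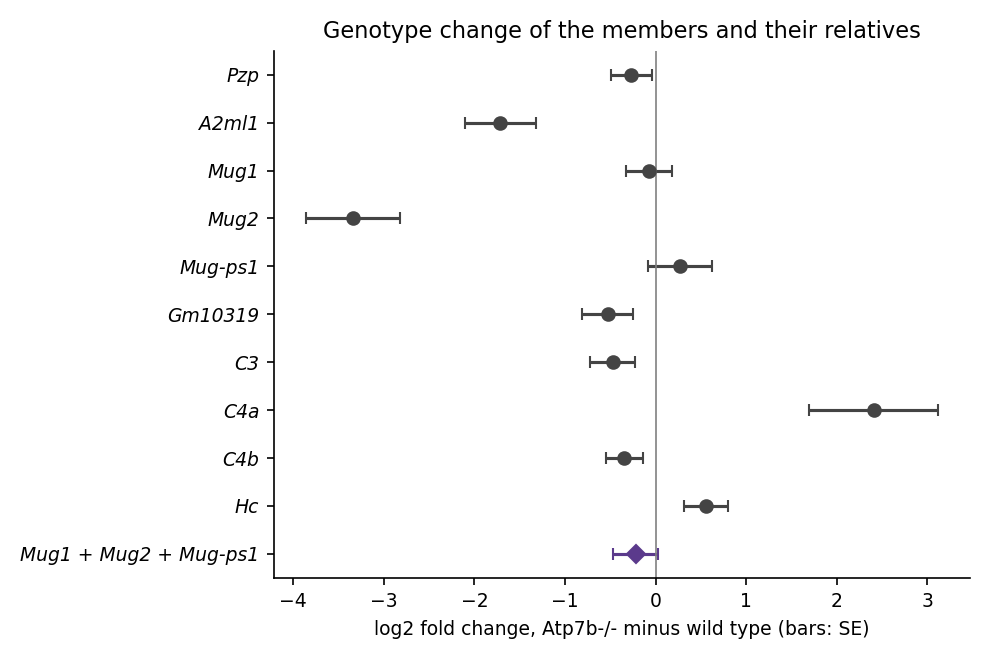
Log2 fold change of Atp7b-/- against wild type (horizontal axis) with its SE for the members that passed the filter, their pseudogenes, other thioester proteins and, as a diamond, the summed row of Mug1, Mug2 and Mug-ps1. Mug2 lies farthest to the left at -3.34, and the summed row lies near 0 at -0.22.

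On the receptor side, LRP1 transcripts did not pass the test. Lrp1 was at 594, 4505 and 4509 CPM in wild type replicates 1 to 3 and at 3712, 3065 and 508 CPM in Atp7b-/- replicates 1 to 3 (log2 fold change -0.35, SE 0.21, edgeR adjusted p = 0.497); it was picked for its role after its values were seen. The paired-end libraries were the low ones here, the opposite of the members. Its chaperone Lrpap1 stood at -0.52 (log2, SE 0.19, adjusted p = 0.263). Of 16 measured genes of uptake receptors and their partners, 1 was called higher, none lower, and 15 missed the threshold. Over all genes tested, 1.9% were called higher and 0.585% lower. The riser was Lrp2, a large receptor known from kidney tubules, which rose (log2 fold change 2.94, SE 0.39, adjusted p = 0.00483), with 0.859 ± 0.42 CPM in wild type against 6.45 ± 1.41 CPM. The list's median was -0.04.

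Listed proteases, cytokines and growth factors, chosen as possible targets or cargo of these inhibitors, showed no called gene. Whether the inhibitors bind them was not tested. None of 28 measured proteases passed (median 0.10). The closest were Hgfac, the activator of hepatocyte growth factor (-0.60, SE 0.20, adjusted p = 0.197), and the matrix protease Mmp19 (0.46, SE 0.18, adjusted p = 0.267). Among 15 measured cytokines and growth factors none passed (median -0.13), with Inhbb, an activin subunit, at -1.42 (SE 0.35, adjusted p = 0.0801) and Vegfa at -0.66 (SE 0.18, adjusted p = 0.125).

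The other protease inhibitors of plasma were not called either. None of 39 measured genes, among them serpins, inter-alpha-trypsin inhibitor chains and kininogens, passed the test, and the median was -0.02. Serpina6, which carries corticosteroids, stood at -0.72 (SE 0.26, adjusted p = 0.246) and Itih3 at -0.62 (SE 0.24, adjusted p = 0.282). None of 24 acute phase proteins was called (median -0.14), with Apcs, the serum amyloid P component, at 1.05 (SE 0.26, adjusted p = 0.0792).

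Among regulators of liver plasma proteins, 3 genes were called lower, where 0.585% of all genes tested were. The median log2 fold change of the interleukin 6 list was -0.22, with 1 of 16 genes positive. That of the growth hormone list was -0.42, with 2 of 13 positive. Over all genes the median was -0.01, with 49.1% positive. Of 16 measured genes of interleukin 6 signalling, Il6ra, the receptor's ligand-binding chain, fell from 90 ± 43.8 to 39.3 ± 25.8 CPM (log2 fold change -1.40, SE 0.23, adjusted p = 0.0151), while the other 15 were not called. Of 13 genes of the growth hormone axis, the feedback inhibitor Socs2 fell from 31.1 ± 12.4 to 7.29 ± 2.93 CPM (-2.15, SE 0.35, adjusted p = 0.0161), and Igfals, which holds IGF1 in plasma, fell from 257 ± 157 to 87.4 ± 40.7 CPM (-1.39, SE 0.25, adjusted p = 0.0219). The Il6ra call was lost when wild type replicate 1 or Atp7b-/- replicate 3 was left out (up to 0.0948), that of Igfals without Atp7b-/- replicate 1 or 2 (up to 0.0924), and that of Socs2 without wild type replicate 1 or any 1 Atp7b-/- library (up to 0.0908). Of 12 measured genes of the fetal liver list, 6 were positive and the median was 0.20. In that list 1 gene was called higher, where 1.9% of all genes tested were. It was Lpl (2.15, SE 0.28, adjusted p = 0.00449), and the fetal marker Afp stood at 0.89 (SE 0.31, adjusted p = 0.217).

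Over all 18 lists, 5 of 247 measured genes were called (2.02%), against 2.49% of all genes. Neither sex-biased list had a called gene: the 13 measured female-biased genes had a median of -2.60 and the 13 male-biased ones a median of 0.61. The summed level of the female-biased list was 395 to 2885 CPM in wild type livers, against 530 to 717 CPM in Atp7b-/- livers. The part of sex in the Mug2 result was not tested. Xist was above 1.01 CPM in wild type replicates 2 and 3 alone, and both are single-end. Sex and genotype therefore cannot be fully told apart in these lists or in Mug2.

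The tissue carried hepatocyte transcripts throughout. The 14 hepatocyte markers, none of them called, summed to 89290 to 127825 CPM in wild type livers, against 67038 to 84941 CPM in Atp7b-/- livers, ranges that do not overlap. Alb, the albumin gene, stood at -0.72 (SE 0.27, adjusted p = 0.256). The sums that follow are over all listed markers. All 10 Kupffer cell markers were measured (203.98 to 439 against 227 to 343 CPM), as were the 10 endothelial (277 to 936 against 253 to 750.2 CPM) and the 10 stellate cell and fibroblast markers (291 to 695 against 341 to 441 CPM). Of the 8 bile duct markers 7 were measured, and the sum was 45.6 to 61.4 CPM in wild type livers, against 61.7 to 98.6 CPM in Atp7b-/- livers. These ranges do not overlap either, with Atp7b-/- the higher. Of the 10 blood cell markers 4 were measured, Ly6g had no count, and the sum was 57.1 to 233 CPM for wild type and 226 to 332 CPM for Atp7b-/-. Of the 12 pancreatic acinar markers 2 were measured and Cpa1, Pnlip and Clps had no count. No marker of these lists was called, and their part in the level of Mug2 was not tested.

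Genes next to the murinoglobulins were not called. Of 23 annotated genes from 250 kb before A2m to 250 kb after Mug-ps1, other than the members, 4 passed the filter, and none was called. Among these 4 were the pseudogenes Mug-ps1 and Gm10319, given above, which share read-length windows with Mug2. The others were M6pr and Phc1. M6pr, the mannose 6-phosphate receptor gene, stood at -0.15 (SE 0.19, adjusted p = 0.782) and Phc1 at -0.23 (SE 0.30, adjusted p = 0.795). On the longer way to 250 kb beyond Pzp, 70 of 265 annotated genes passed and 2 were called. Over all genes tested, 2.49% were called, so nothing is read from this count. Clstn3 rose (log2 fold change 1.72, SE 0.27, edgeR adjusted p = 0.0108), which no longer passed once wild type replicate 1 or Atp7b-/- replicate 3 was left out (up to 0.0932). Clec2h, a lectin-like gene 136 kb from Pzp (chromosome 6, 128662385 to 128677374), fell (edgeR adjusted p = 0.0011). It had 569, 55 and 69 counts in wild type libraries and 1, 0 and 0 in Atp7b-/- ones. The ratio per total count was 817 (95% exact interval 146 to 32319) and, without wild type replicate 1, which holds most of the counts, 336 (59.3 to 13394), both intervals for counting error only.

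The genes whose log2 CPM followed each member most closely over the 6 libraries, among 4113 named genes whose log2 CPM averaged 5 or more, are given as a description, since all points share library and layout. For Mug2 they were the squalene synthase gene Fdft1 (Pearson r = 0.99), the acyl-CoA synthetase gene Acsl1 (0.966), the adaptor gene Crk (0.96), the aryl hydrocarbon receptor gene Ahr (0.95) and Nrn1 (0.947). Fdft1 was at 112 to 125 CPM in wild type livers, against 82.8 to 112 CPM in Atp7b-/- libraries, a far smaller range than that of Mug2. Acsl1 was at 1079 to 1469 CPM in wild type livers, against 689 to 1031 CPM in Atp7b-/- libraries. Of the 5, Nrn1 was called lower between genotypes (log2 -1.15, SE 0.24, edgeR adjusted p = 0.0435), a call lost when any library but wild type replicate 3 was left out (up to 0.158). For Mug1 they were AI182371, Eif1, Vps35, Wdr26 and Tor1aip2 (r = 0.994 to 0.996), and for Pzp Srsf5, Dennd5b, Sqle, Nr3c1 and Mpzl2 (0.989 to 0.993). None of these 10 genes was called. A2m had too few counts for this comparison.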

How the data were processed

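Liver RNA of 6 libraries was analysed, 3 wild type and 3 Atp7b-/-. The authors deposited whole-number read counts per Ensembl gene. Per the submitters' processing notes, STAR 2.4, featureCounts, edgeR 3.8 and the build GRCm38 were named; the annotation release, strand setting, treatment of reads that fit several genes and whether a pair counted as 1 or 2 are given by none of these sources. The deposited counts were fitted with edgeR 4.0.16 in R 4.3.3 (TMM scaling, filterByExpr with a minimum count of 10, robust quasi-likelihood test, layout and genotype as terms), with Benjamini-Hochberg adjustment over all 12988 genes that passed. CPM use TMM-scaled totals (factors 0.912 to 1.12), and log2 values a prior count of 2. DESeq2 1.42.0 and limma-voom 3.58.1 were alternatives, as were other scaling, no filter, other terms, single-end libraries alone and leaving out each library. The paired-end libraries alone, the fit without wild type replicate 3 and Atp7b-/- replicate 3, and the Clec2h ratio without wild type replicate 1 were added after seeing the data. The count analysis was run on simulated data with known genotype changes. These held no layout effect, so the run does not bear on how well the fit handles layout. The members and all gene lists were chosen with earlier results of these data known. The genes named were all members and thioester relatives, and up to 4 genes of smallest p per list plus called ones. Also named were called genes from 250 kb before A2m to 250 kb beyond Pzp and the 5 genes most alike in pattern. The rest are given by counts, and not every named gene is printed. Transcripts were taken from GENCODE M21 and promoters from RefSeq GRCm38.p6.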

Additional observations from a re-analysis of the deposited data

How the results depend on the processing

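Genes called between genotypes numbered 323 with edgeR and 770 with DESeq2, 1116 with no filter on low counts and 126 in the single-end libraries alone. With edgeR, dropping the layout term left 0 calls and replacing it by labelled sex left 0, where 545 and 381 genes had an unadjusted p under 0.05. Leaving out 1 library gave 119 to 323 calls, with 119 without Atp7b-/- replicate 3, 131 without wild type replicate 1 and 208 without Atp7b-/- replicate 1. Scaling by library totals gave 384 higher and 44 lower calls, against 247 and 76. List genes called numbered 5, against 18 with DESeq2 and 20 with no filter. The Mug2 share differed by -10.1 percentage points between genotypes and by -12.7 in the single-end libraries alone. The labelled sex term of Mug2 was 1.05 and, with no filter, 1.03, where it passed the threshold. The causes of these changes were not tested. Mug2 and Pzp stayed negative in all 17 settings and Mug1 turned positive in 5. A2m is limited by depth, with 36 counts in all. No paired analysis was possible because the labels give the groups no shared replicate numbers.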
